A study of Danio rerio with 5 samples.

Results

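Gap43 and the stathmins are 2 kinds of protein that growing axons carry in quantity. Gap43 is a palmitoylated protein on the inner face of the growth cone membrane, where protein kinase C phosphorylates it, calmodulin binds it and it acts on the actin skeleton. Stathmins bind tubulin dimers, hold them out of the polymer and favour the shortening of microtubules, and phosphorylation switches this activity off. In mammals stathmin 1 is cytosolic and common in dividing and young cells, while stathmins 2, 3 and 4 are neuronal, carry a palmitoylated tail that anchors them to membranes, and stathmin 2 (SCG10) is enriched in growth cones.

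The genes are gap43 and the stathmin family members stmn1a, stmn1b, stmn2a, stmn2b, stmn3, stmn4 and stmn4l. They came to 8 of the 31953 Ensembl genes counted. They were chosen by symbol with the posterior against anterior values of gap43 and of an STMN1 gene already known. That contrast is therefore described here, no p is printed for a single member, and counts of members by p add no support. The symbol table writes the stathmins in capitals and without the final a or b. Each of STMN1, STMN2 and STMN4 therefore stands for 2 identifiers, stmn4l has no symbol of its own, and the copies are called x (the lower identifier number) and y (the higher) below. They are gap43 (ENSDARG00000099744), STMN1-x (ENSDARG00000004169), STMN1-y (ENSDARG00000033655), STMN2-x (ENSDARG00000033234), STMN2-y (ENSDARG00000070537), STMN3 (ENSDARG00000038465), STMN4-x (ENSDARG00000030106) and STMN4-y (ENSDARG00000043932).

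The study profiled vagus motor neurons, the hindbrain neurons that innervate the pharyngeal arches and viscera, in zebrafish embryos 28 to 30 hours after fertilisation. All embryos carried the transgene Tg(isl1:Kaede), so every cell picked had isl1-driven Kaede, a fluorescent protein that light turns from green to red. Neurons at either the front (anterior group, libraries B and G) or the back (posterior group, libraries B, G and R) of the nucleus were converted, and 100 red cells were picked by hand for each library. The labels do not say how many embryos a library drew on, nor whether the letters mark a shared session, so the spread between libraries may be partly technical.

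Libraries held 14932562 to 20088585 reads assigned to genes, and 10463 (posterior B) to 13589 (anterior G) genes had at least 1 read. The cells were picked by isl1-driven Kaede, and the motor neuron gene ISL1 (1805 to 2381 CPM, reads scaled to a library total of 1e+06) was high in every library. CHAT, for acetylcholine synthesis, was at 0 to 36.1 CPM. Of 14 tested genes of a motor neuron list, 9 had a negative log2 fold change (posterior minus anterior), with a median of -0.40. At an unadjusted edgeR p under 0.05, 3 were lower in posterior (PRPH, RET and TBX2, ENSDARG00000018025) and 1 was higher (PHOX2A). Of all genes tested, 4.21% were lower and 2.28% higher by that measure. Without anterior G the median of the list was 0.997, over 16 tested genes. Markers of other states were also present. The 20 genes of a progenitor and cycling list summed to 7317 CPM in anterior G and 10548 in anterior B, with 7505 to 9334 in the posterior libraries, and the cycling gene mki67 alone was at 383 to 2055 CPM. Of the 18 tested genes of that list, 12 had a positive log2 fold change, with a median of 0.25. At an unadjusted edgeR p under 0.05, CCNB1 (1.32) and PCNA (0.60) were higher in posterior and MCM2 (-0.64) was lower. That of mki67 was -0.26. The 14 genes of an other-tissue list summed to 315 CPM in anterior B and to 0.990 to 21.6 CPM in the rest, with 7 of the 14 at 0 reads everywhere. Anterior B held 97.0 CPM of the endothelial gene kdrl and 132 CPM of COL1A2. The 20 genes of a general neuron list summed to 8889 CPM in anterior G, 5604 in anterior B and 5000 to 5889 in the posterior libraries. Gene by gene, 13 of its 15 tested genes had a negative log2 fold change (posterior minus anterior), with a median of -1.13. At an unadjusted edgeR p under 0.05, 5 were lower in posterior and 0 higher. These were DPYSL3, MAP1B, nefmb, cntn2 and INA (ENSDARG00000053248), a neuronal intermediate filament gene at 42.1 and 122 CPM in anterior B and G and at 0 reads in the posterior libraries. In 7 of the 15 all posterior libraries were below both anterior ones, where 12.3% of all genes tested were. Without anterior G the median was -0.69, with 11 of 15 negative. Of the 15, 9 are also in the lists of partners and regulators used below. The 14 genes of an interneuron list summed to 231 CPM in anterior G and to 26.3 to 110 CPM in the rest, with 2 of the 14 at 0 reads everywhere. The inhibitory transporter genes SLC32A1 (43.0 CPM) and SLC6A5 (28.6 CPM) had reads in anterior G alone, and PAX2 (ENSDARG00000028148) was at 133 CPM there and at most 22.8 CPM elsewhere. GAD2, for GABA synthesis, was at most 0.190 CPM in any library. Anterior G thus had the highest sums of general neuron and interneuron transcripts, and anterior B the highest of other tissue. The part of these markers in the values of gap43 and the stathmins was not tested.

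The clearest values were those of gap43 and STMN1-y, which were lower in every posterior library than in either anterior library. The other STMN1 gene was not. STMN2 and STMN4 were lower in the posterior mean, largely because anterior G was far above the other 4 libraries. STMN3 was near the limit of detection in 3 libraries. All 8 genes passed the expression filter, STMN3 and STMN4-x through 1 library of each group.

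**Figure D1:**
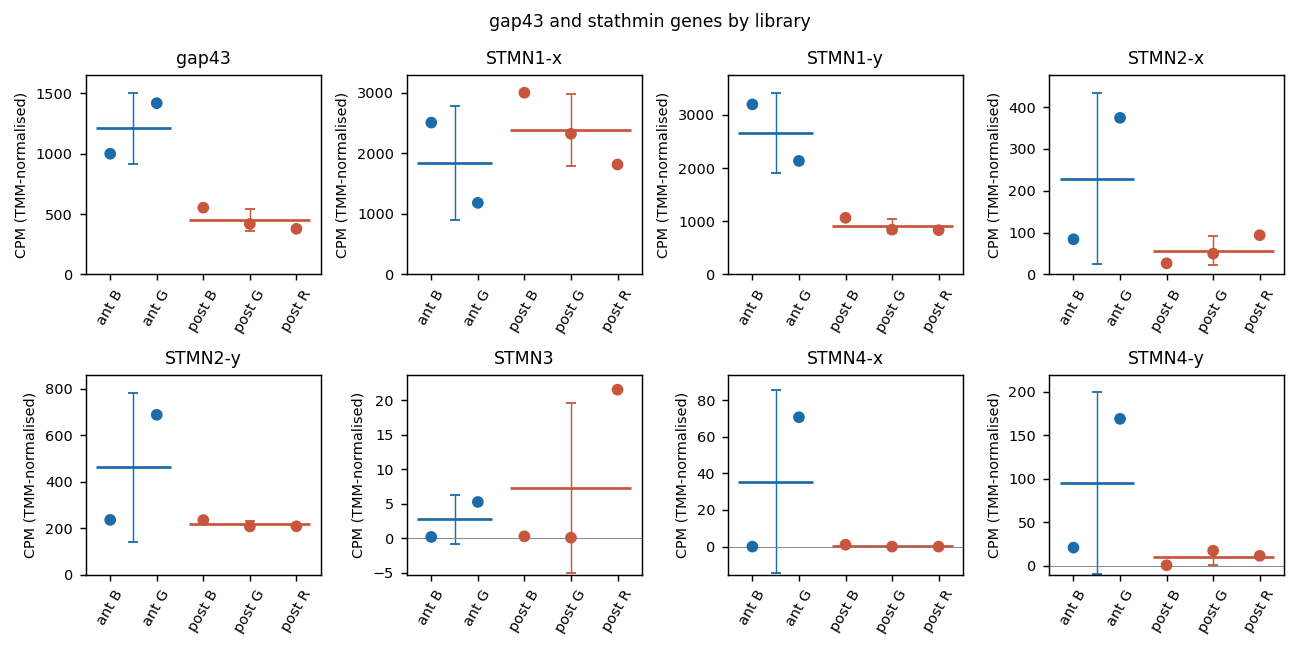
TMM-normalised CPM of gap43 and the 7 stathmin genes in each library (points; blue anterior, red posterior), with group means (lines) and SD (bars; n = 2 and n = 3); x and y are the 2 identifiers that share a symbol, and each panel has its own axis. In gap43 and STMN1-y all 3 posterior points lie below both anterior points, while in both STMN4 genes and both STMN2 genes anterior G is the highest point.

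Gap43 stood at 999 CPM in anterior B and 1417 CPM in anterior G, against 553, 418 and 378 CPM in the posterior libraries B, G and R. The groups did not overlap, and the lowest anterior value was well above the highest posterior one. The anterior mean was 1208 ± 296 CPM (SD, n = 2), the posterior mean was 449 ± 91.6 CPM (SD, n = 3), and the fitted log2 fold change was -1.43 ± 0.32 (SE). Within each letter, posterior minus anterior on the log2(CPM + 1) scale was -0.85 for B and -1.76 for G. In these libraries of pooled cells, fewer gap43-expressing cells and less gap43 RNA per cell cannot be told apart.

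The 2 STMN1 genes, which encode cytosolic stathmin, went separate ways. STMN1-y was at 3195 and 2133 CPM in anterior B and G and at 1064, 841 and 832 CPM in the posterior libraries B, G and R. These groups did not overlap, and the log2 fold change was -1.55 ± 0.26 (SE). By letter, the difference was -1.59 for B and -1.34 for G. STMN1-x was at 2508 and 1182 CPM in anterior B and G and at 3001, 2323 and 1815 CPM in the posterior libraries B, G and R. Anterior G was the lowest library and anterior B the second highest, so the groups overlapped, with a log2 fold change of 0.37 ± 0.32 (SE). Without anterior G it was -0.086, so this gene has no stable direction.

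Set against each other, the 2 STMN1 genes gave a split that did not overlap between the groups. STMN1-y took 56.0% (95% exact binomial interval 55.7% to 56.3%) of the reads of both STMN1 genes in anterior B and 64.3% (64.0% to 64.7%) in anterior G. It took 26.2% (25.8% to 26.5%) in posterior B, 26.6% (26.2% to 27.0%) in posterior G and 31.4% (31.0% to 31.8%) in posterior R. The anterior shares were all above the posterior ones, and since this share needs no scaling between libraries it does not depend on the normalisation. STMN1-y was chosen with its posterior against anterior values known, so the split describes this pair and adds no support. How often the split of other gene pairs fails to overlap was not tested. Intervals cover the counting of reads only. The 2 genes' lengths were not used, so a share of reads is not a share of transcripts. Both STMN1 genes together came to 5703 and 3314 CPM in anterior B and G and to 4065, 3164 and 2647 CPM in the posterior libraries B, G and R, and here the groups overlapped. The 2 copies are duplicates, and reads that align to more than 1 place were left out of the gene counts. The line for such alignments made up 16.6% to 20.3% of all counts in the files. The share of STMN1 reads left out for this reason is unknown.

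**Figure D2:**
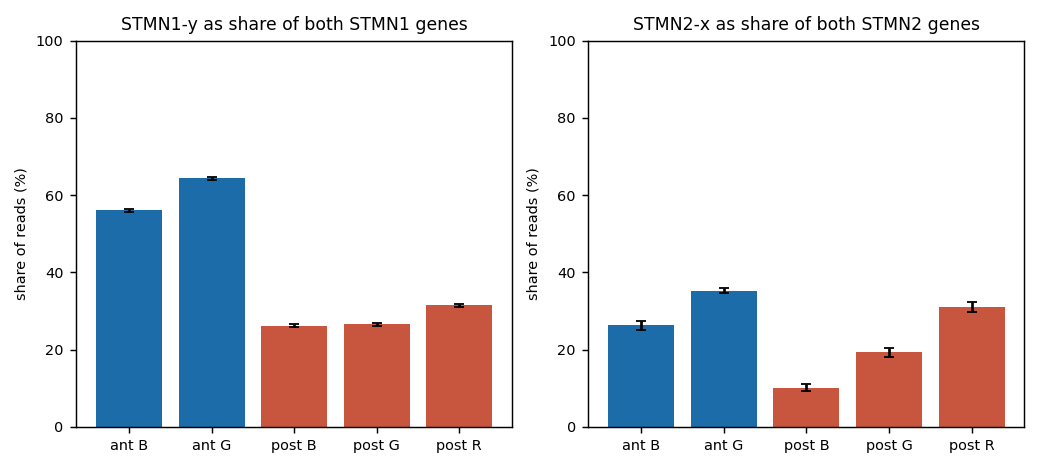
Share of reads (%) that came from STMN1-y among both STMN1 genes (left) and from STMN2-x among both STMN2 genes (right), per library, with 95% exact binomial intervals for read counting. For STMN1 the anterior bars (56.0% and 64.3%) stand above the posterior bars (26.2% to 31.4%), while for STMN2 the groups overlap.

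The STMN2 genes encode the growth cone stathmin SCG10. STMN2-x was at 84.0 CPM in anterior B and 374 CPM in anterior G, and at 26.5, 49.6 and 93.7 CPM in the posterior libraries B, G and R. The groups overlapped, since posterior R was above anterior B, and the log2 fold change was -1.999 ± 0.71 (SE). STMN2-y was at 236 and 688 CPM in anterior B and G and at 235, 208 and 208 CPM in the posterior libraries B, G and R. Its posterior libraries lay close together, with 1.13-fold between highest and lowest, and anterior B (235.7 CPM) exceeded posterior B (234.9 CPM) by so little that the groups overlapped under RLE (median-of-ratios) scaling. The log2 fold change of -1.10 ± 0.47 (SE) became -0.13 without anterior G, and that of STMN2-x became -0.54. The 2 genes kept no split by group. STMN2-x gave 26.3% and 35.2% of STMN2 reads in anterior B and G and 10.2%, 19.3% and 31.0% in posterior B, G and R.

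STMN3, for another membrane-anchored neuronal stathmin, had 3 and 106 reads in anterior B and G and 4, 1 and 408 reads in posterior B, G and R. Only anterior G (5.25 CPM) and posterior R (21.5 CPM) held more than 4 reads, 1 library from each group, and no direction can be read from the fitted log2 fold change of 1.47 ± 1.98 (SE). Its group means were 2.71 CPM (anterior) and 7.28 CPM (posterior), and zeros were common even at higher levels. Of the genes that averaged 10 to 30 CPM over 4 libraries, 14.96% (posterior R) to 37.9% (posterior B) had 0 reads in the remaining one.

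The STMN4 genes encode the remaining neuronal stathmin, known in mammals as RB3. STMN4-y was at 20.8 and 169 CPM in anterior B and G and at 0.454, 17.2 and 11.3 CPM in the posterior libraries B, G and R. The groups did not overlap, but anterior B lay close to posterior G, and the log2 fold change of -3.31 ± 1.09 (SE) became -1.09 without anterior G. STMN4-x had 1427 reads (70.6 CPM) in anterior G, 16 reads in posterior B and 0 reads in the other 3 libraries, where the limit of 3 reads was 0.158 to 0.190 CPM. It was thus found in quantity in 1 library, and its fitted fold change reversed when that library was left out.

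Summed over the 7 stathmin genes, the level was 6044 and 4621 CPM in anterior B and G and 4328, 3439 and 2982 CPM in the posterior libraries B, G and R. The anterior mean was 1.49-fold the posterior mean, and this ratio ran from 1.29 without anterior B to 1.698 without anterior G. The make-up of the sum differed in 1 library. The STMN1 genes gave 71.7% of stathmin reads in anterior G and 88.8% to 94.4% in the other 4, including anterior B (94.4%). So anterior G, the library with most general neuron transcripts, also held the most STMN2 and STMN4 and the least STMN1-x. 

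In the fit over all genes, 6 of the 8 genes had a negative log2 fold change, with a median of -1.49 against -0.055 over the 11827 genes tested. None had an edgeR quasi-likelihood adjusted p under 0.05, as was so for all genes tested (0%), of which 768 had an unadjusted p under 0.05. DESeq2 called 250 genes at an adjusted p under 0.05, and limma-voom called 0. At an unadjusted p under 0.05, 6 of the 8 were lower in posterior, where 4.21% of genes tested were lower and 2.28% higher. That count was 3 with the legacy form of the edgeR fit, 2 with limma-voom or without posterior B, and 3 without posterior G. In 4 of the 8 (gap43, STMN1-y, STMN2-y and STMN4-y) all posterior libraries were below all anterior ones, where 12.3% of genes tested were, and in none were they all above, where 9.57% were. Because the family was picked with this contrast in view, these counts describe it and add no support.

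**Figure D3:**
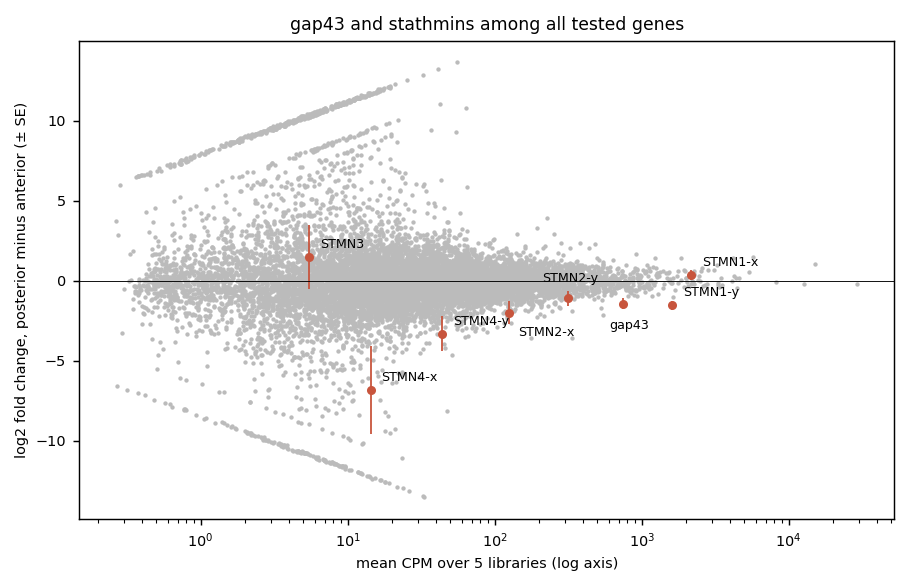
Log2 fold change (posterior minus anterior) against mean CPM (log axis) for all 11827 genes tested (grey), with gap43 and the stathmins in red with their SE; the straight grey arms are genes with 0 reads throughout 1 group. Gap43 and STMN1-y lie at -1.43 and -1.55 with short bars, while STMN3 and STMN4-x lie where genes scatter widely.

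Leaving out libraries separated the family into genes that depended on anterior G and genes that did not. Over the 5 fits that each left out 1 library, gap43 ranged from -1.66 (without anterior B) to -1.17 (without anterior G) and STMN1-y from -1.82 (without anterior G) to -1.23 (without anterior B). Without anterior G the median of the 8 moved from -1.49 to -0.34, and 2 of them instead of 6 had an unadjusted p under 0.05. Without anterior B, the library with other-tissue transcripts, the median was -1.66. All posterior libraries were then below anterior G in 6 of the 8, where 28.1% of the 14261 genes tested in that setting were, and all were above it in STMN1-x, where 15.6% were. The highest over the lowest anterior library was 1.42 for gap43 and 1.498 for STMN1-y, close to the median of 1.505 over 2112 genes with a mean of at least 100 CPM and more than 3 reads in each library. It was 4.45 for STMN2-x, 2.92 for STMN2-y and 8.14 for STMN4-y. In the posterior libraries the ratios were 1.46 for gap43, 1.28 for STMN1-y and 1.13 for STMN2-y, against a median of 1.72. They were 3.53 for STMN2-x and 37.95 for STMN4-y, so these genes varied widely in both groups.

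**Figure D4:**
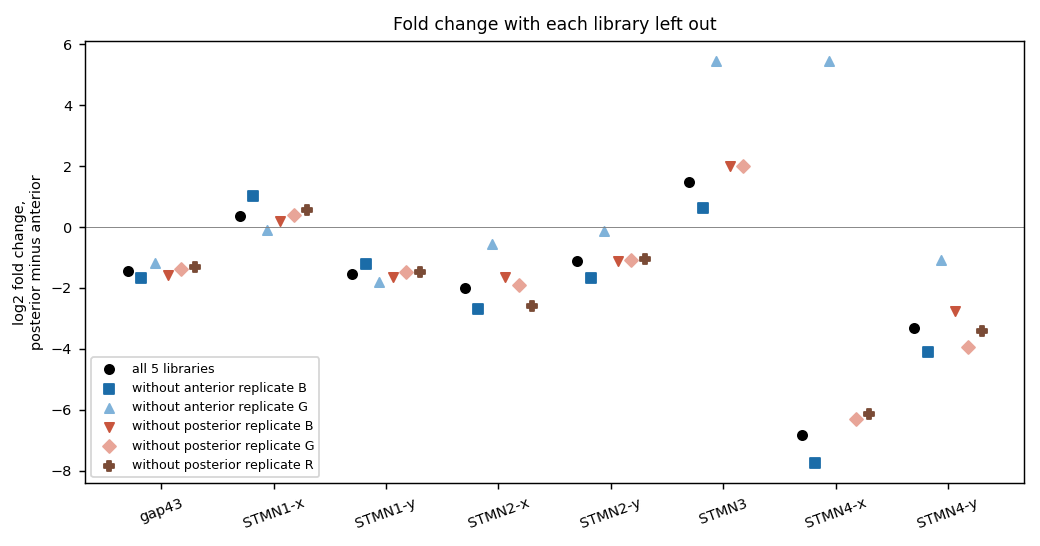
Fitted log2 fold change (posterior minus anterior) of each gene with all 5 libraries (black) and with each library left out in turn; a missing symbol means that the gene did not pass the filter in that fit. Gap43 and STMN1-y stay between -1.82 and -1.17, whereas STMN2, STMN4 and STMN3 shift most without anterior G (pale blue triangles).

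The genes whose pattern over the 5 libraries lay nearest to gap43 were sought among 2132 genes with a mean of at least 100 CPM, by the root-mean-square difference of centred log2(CPM + 1). They were CEP131 (0.147, a centrosome gene), hapln1a (0.155, a matrix link protein gene), PWWP2A (0.193), zgc:65894 (0.266) and KLF6 (0.273, a transcription factor gene), against a median difference of 0.914. STMN1-y came 25th by the same measure (0.353) and STMN2-y 55th (0.438), while STMN2-x came 1101st (0.922) and STMN1-x 1462nd (1.06). Both STMN4 genes and STMN3 lay further away (1.825 to 1.97). Nearest to STMN1-y were TMEM183A (0.174), rtn1b (0.197, a reticulon gene), ETF1 (0.267), NARS1 (0.274) and MLLT11 (0.282), and gap43 came 17th. The centring kept the difference between the groups, and gap43 and STMN1-y were chosen with that difference known. Their nearness to each other therefore adds no support. These lists rest on 5 libraries. With 1 library left out, 0 to 3 of the 5 genes nearest to gap43, and 1 or 2 of those nearest to STMN1-y, were again among the nearest 5.

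Partners and regulators were taken from 8 lists, read against the shares of all genes given above (4.21% lower and 2.28% higher in posterior at an unadjusted p under 0.05). The first held membrane proteins related to gap43 in role and proteins of the membrane skeleton. Of its 12 tested genes, 1 was lower in posterior at an unadjusted p under 0.05 and 0 were higher, with a median log2 fold change of 0.13. The lower one was basp1, which encodes a growth cone protein found at the same membrane sites as gap43. It was at 49.6 and 194 CPM in anterior B and G and at 16.4, 25.0 and 38.4 CPM in the posterior libraries B, G and R, without overlap (log2 fold change -2.19 ± 0.79 SE, edgeR adjusted p 0.726). Of the 12, 1 was lower without overlap, where 12.3% of all genes tested were, and 2 were higher, where 9.57% were. The 2 were MARCKS (ENSDARG00000004049), at 48.8 and 114 CPM against 163 to 192 CPM, and marcksl1a, at 124 and 208 CPM against 270 to 348 CPM. The other MARCKS gene (ENSDARG00000008803) overlapped, at 1256 and 2537 CPM against 2378 to 2627 CPM. The gene of this list with the highest mean CPM over the 5 libraries, marcksl1b, had 3248 and 4080 CPM in the anterior and 2873 to 3352 CPM in the posterior libraries, which overlapped (edgeR adjusted p 0.758).

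Among 16 tested genes for calmodulins and protein kinase C or calcineurin subunits, 0 were lower and 2 higher in posterior at an unadjusted p under 0.05. The calmodulin gene CALM2 (ENSDARG00000015050) was at 1751 and 1755 CPM in the anterior and 2882, 2445 and 2516 CPM in the posterior libraries, without overlap (log2 fold change 0.58 ± 0.21 SE, edgeR adjusted p 0.726). PRKCI, an atypical protein kinase C gene, was at 0.0590 and 29.9 CPM in the anterior and 92.6 to 99.7 CPM in the posterior libraries. The highest mean CPM over the 5 libraries was that of calm3b, a calmodulin gene, which overlapped between the groups at 1989 to 4139 and 2354 to 2886 CPM. Of 15 tested palmitoylation genes, 1 was lower, zdhhc3a, a palmitoyl transferase gene, with 26.9 and 16.3 CPM in the anterior and 0.779 to 1.77 CPM in the posterior libraries. The highest mean CPM over the 5 libraries was that of LYPLA2, for a thioesterase that removes palmitate from proteins, with 147 and 142 CPM in the anterior and 156 to 304 CPM in the posterior libraries.

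Kinases and phosphatases that act on stathmins, with their scaffolds, showed values both ways, with 3 of 34 tested genes lower and 4 higher. PAK4, for a serine/threonine kinase, was at 26.3 and 61.2 CPM in the anterior and 0, 10.1 and 0 CPM in the posterior libraries B, G and R. MAPK8IP1 (ENSDARG00000102229), for a scaffold of the JNK pathway, was at 66.0 and 17.5 CPM in the anterior and at most 2.53 CPM in the posterior libraries. A second MAPK8IP1 gene (ENSDARG00000090326) overlapped between the groups, at 53.0 and 12.2 CPM against 0 to 43.7 CPM. Higher in posterior were prkacaa, for a catalytic subunit of protein kinase A, with at most 0.198 CPM in the anterior and 63.6 to 136 CPM in the posterior libraries, and ppp1cab, for a catalytic subunit of protein phosphatase 1, with 36.9 and 71.2 CPM and 107 to 283 CPM. By mean CPM over the 5 libraries the highest was ppp2cb, a phosphatase subunit gene, which had 503 and 531 CPM in the anterior and 373 to 550.1 CPM in the posterior libraries. Among 29 tested RNA-binding and transcription regulators, 5 were lower and 0 higher. Of the 5, KLF6, tardbpb and SIN3A (ENSDARG00000059812) did not overlap between the groups, while elavl1a and CEBPD did. Elavl1a was at 524 CPM in anterior B, 49.6 CPM in anterior G and 66.0 to 99.6 CPM in the posterior libraries. CEBPD was at 98.9 CPM in anterior B, 0 in anterior G and at most 1.48 CPM in the posterior libraries. KLF6 was at 188 and 304 CPM in the anterior and 77.5 to 117 CPM in the posterior libraries, and the corepressor gene SIN3A (ENSDARG00000059812) was at 92.2 and 64.5 CPM and at 0 to 25.5 CPM. The other gene of that symbol (ENSDARG00000079716) had the opposite order without overlap, at 29.6 and 17.1 CPM against 50.2 to 122 CPM, and differed by 1.75 ± 0.84 (SE) on the log2 scale, with an edgeR adjusted p of 0.726. ELAVL3, for a neuronal RNA-binding protein of the family that stabilises GAP43 mRNA in mammals, had the highest mean CPM over the 5 libraries and overlapped between the groups, at 3508 and 4408 CPM and 2840 to 3530 CPM.

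Tubulins, the partners of stathmins, included 3 genes lower and 1 higher of 15 tested. The 3 were TUBB2B (ENSDARG00000039522), TUBD1 and tubb4bl, the last at 351 and 889 CPM in the anterior and 292 to 349 CPM in the posterior libraries. The 2 genes named tubb2b were both lower in every posterior library than in either anterior library, but by different amounts. TUBB2B (ENSDARG00000039522) was at 210 and 551 CPM in the anterior and 77.1 to 110 CPM in the posterior libraries (log2 fold change -2.11 ± 0.53 SE, edgeR adjusted p 0.683). The other, tubb2b (ENSDARG00000098591), was at 14499 and 13020 CPM and at 11863 to 12304 CPM (log2 fold change -0.19 ± 0.12 SE, edgeR adjusted p 0.726). TUBD1, for delta-tubulin of centrioles, was at 24.0 and 22.1 CPM in the anterior and at 0 reads in all 3 posterior libraries. Tuba8l4 was higher in posterior, at 81.7 and 416 CPM against 652 to 676 CPM. Of 43 tested genes for microtubule stability and dynamics, 6 were lower and 3 higher, with a median log2 fold change of -0.38. DPYSL3, for a collapsin response mediator that binds tubulin, was at 178 and 275 CPM in the anterior and 23.6 to 68.4 CPM in the posterior libraries. DCLK1 (ENSDARG00000018856), of the doublecortin family, was at 33.0 and 53.4 CPM and at 1.04 to 6.97 CPM. A second DCLK1 gene (ENSDARG00000104664) overlapped between the groups, at 0.413 and 75.5 CPM against 0.254 to 38.5 CPM. Higher in posterior were kif18a, a mitotic kinesin gene, with 44.4 and 81.9 CPM against 71.0 to 343 CPM, and NCAM1 (ENSDARG00000056181), a cell adhesion gene, with 157 and 118 CPM against 263 to 355 CPM. A second NCAM1 gene (ENSDARG00000007220) overlapped between the groups, at 53.4 and 96.6 CPM against 69.7 to 134 CPM. The gene with the highest mean CPM over the 5 libraries, mapre1b, for a protein that tracks microtubule plus ends, had a log2 fold change of 0.0023 ± 0.28 (SE).

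In a list for axon growth and regeneration, 4 of 40 tested genes were lower and 1 higher, with a median log2 fold change of -0.034. NRP2 (ENSDARG00000038446), for a semaphorin receptor, was at 402 and 340.0 CPM in the anterior and 32.3 to 144 CPM in the posterior libraries (log2 fold change -2.25 ± 0.56 SE, edgeR adjusted p 0.683). A second NRP2 gene (ENSDARG00000096546) overlapped between the groups, at 46.3 and 87.0 CPM against 0.195 to 61.0 CPM. NCAM1 (ENSDARG00000056181) was again the gene higher in posterior. The actin gene actb2 had 616 CPM in anterior B and 3586 CPM in anterior G, against 3181 to 3522 CPM in the posterior libraries, so anterior B stood apart. Over these 8 lists no gene had an edgeR adjusted p under 0.05. Counts at an unadjusted p moved with the setting, from 0 to 6 lower among RNA-binding and transcription regulators and from 3 to 8 lower among microtubule stability and dynamics genes over all settings tried. With 1 anterior library left out, genes named for the smallest unadjusted p of these lists moved by differing amounts, none with a change of sign. Elavl1a and CEBPD are not among these genes. In anterior G, elavl1a (49.6 CPM) and CEBPD (0 CPM) were not above the posterior libraries (66.0 to 99.6 CPM and at most 1.48 CPM). Where 2 genes share a symbol, the one named first above is meant. The log2 fold changes of mapre1b, calm3b and actb2, named for their mean CPM, ranged over 0 with 1 library left out. Without anterior G the log2 fold change was -0.87 for basp1 (-2.19 with all libraries), -1.26 for TUBB2B (-2.11) and -3.04 for PAK4 (-3.8). It was -0.89 for KLF6 (-1.28) and 0.92 for NCAM1 (1.13). Without anterior B it was 0.68 for tuba8l4 (1.40), 1.69 for PRKCI (2.59), 1.27 for ppp1cab (1.65) and 1.43 for kif18a (1.78). For MAPK8IP1 it was -4.37 (-5.58), for zdhhc3a -3.78 (-4.17) and for SIN3A -2.04 (-2.31). CALM2, prkacaa, TUBD1, DPYSL3, DCLK1 and NRP2 also kept their sign. The family's median was -1.49, that of the general neuron list -1.13, and those of the 8 lists ran from -0.49 (palmitoylation) to 0.26 (kinases and phosphatases). The difference between the family and any list was not tested.

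**Figure D5:**
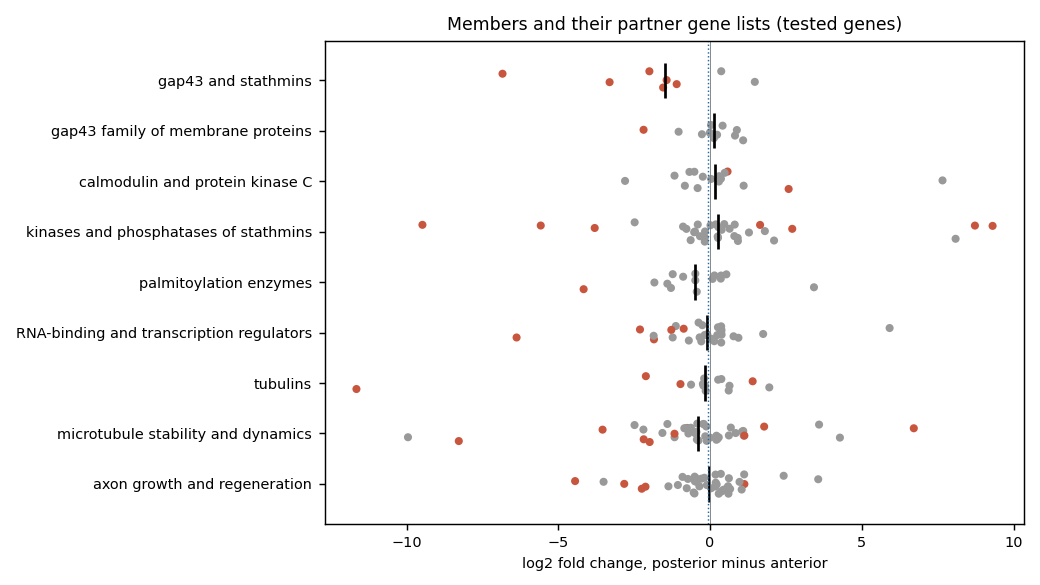
Log2 fold change (posterior minus anterior) of gap43 and the stathmins (top) and of the tested genes in 8 lists of partners and regulators; red points have an unadjusted edgeR p under 0.05, black ticks are medians and the dotted line is the median of all genes tested (-0.055). The medians of the lists lie between -0.49 and 0.26 and that of the family at -1.49.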

How the data were processed

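Per the labels' protocols, RNA of hand-picked cells was amplified with a full-length cDNA kit for low input and read on an Illumina sequencer, in 2 anterior and 3 posterior libraries grouped by source name. Each deposited file holds raw read counts by Ensembl identifier for 1 library, not normalised. The submitters' processing notes name bcl2fastq 1.8.4, TopHat2 2.1.0, HTSeq 0.6.1 and the build GRCz10. The annotation release and strand setting are not given in the sources used here. Without a stated strand, overlapping and antisense genes are uncertain. Lines for reads not assigned to a gene stayed out of library sizes. Gene lines made up 69.0% to 72.5% of all counts in the files.

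Counts were fitted with the edgeR 4.0.16 quasi-likelihood test (R 4.3.3; estimateDisp, non-legacy glmQLFit) over all genes, with TMM factors, filterByExpr (minimum count 10, minimum total 15), two-sided p and Benjamini-Hochberg adjustment over 11827 genes. CPM are TMM-normalised. The SE is the fold change divided by the square root of F. The code was checked on simulated data. Alternatives were RLE factors, 2 other filters, DESeq2 1.42.0, limma-voom (limma 3.58.1), the legacy fit (added after seeing the data), a block for the title letter and each library left out.

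Symbols (26121 of 31953 identifiers) were matched in any case, or without a final a or b against capitals. The members and the lists were chosen with earlier results of these data known. From each list the text names up to 2 genes in each direction with the smallest p among those with an unadjusted p under 0.05, and the gene with the highest mean CPM, except that 1 gene so chosen is not reported here. CPM were not divided by transcript length, so the highest mean CPM means the most reads, not the most transcripts. Marker genes, the other SIN3A gene, elavl1a, CEBPD and tardbpb were named after their values were seen. So were both MARCKS genes, marcksl1a, tubb4bl and the second genes of MAPK8IP1, DCLK1, NCAM1 and NRP2.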

Additional observations from a re-analysis of the deposited data

How the results depend on the processing

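Few calls can be made from 2 against 3 libraries. With all libraries, 0 genes passed an adjusted p of 0.05, which became 250 with DESeq2 and ran from 0 to 7 with 1 library left out (7 without anterior G, 1 without anterior B). Among the 8 members this count was 2 with DESeq2 and 0 to 1 with 1 library left out (1 without anterior G). The 768 genes with an unadjusted p under 0.05 became 211 with the replicate block over 4 libraries and ran from 502 (without posterior G) to 1009 (without anterior G) with 1 library left out. Members lower in posterior with such a p, 6 with all libraries, were 2 with limma-voom, 3 with the legacy fit, and 2 to 6 with 1 library left out (2 without anterior G or posterior B, 3 without posterior G). The median log2 fold change of the members ran from -1.66 to -0.34 with 1 library left out and was -1.44 with the replicate block, against -1.46 in the same 4 libraries without it. Members whose groups did not overlap, in either direction, numbered 3 (without posterior G, where 35.1% of genes tested did not overlap) to 7 (without anterior B, 6 lower and 1 higher, where 43.7% did not). Deviations from the group means of libraries sharing a letter had correlations of -0.0019 (B) and 0.0063 (G) across genes. With 2 anterior libraries the anterior deviations mirror each other, so these are not separate checks. Noise in genes with few reads can hide a shared effect, so they cannot decide whether the letters mark a shared session.

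Signs reversed, or ranged over 0 with 1 library left out, for STMN1-x (-0.086 without anterior G to 1.01 without anterior B), STMN4-x (5.45 without anterior G to -7.76 without anterior B), STMN3 under limma-voom (-0.32), and 3 partner genes with no call. These were mapre1b (-0.00071 under RLE, -0.0023 under DESeq2, -0.19 to 0.21 with 1 library left out, -0.024 without posterior G), calm3b (-0.68 to 0.38) and actb2 (-0.11 to 2.42). The cause was not tested. Where 1 anterior library is left, it is assumed to vary like the posterior group. STMN3 did not pass the filter without posterior R or with the block, nor STMN4-x without posterior B.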
